A study of Mus musculus with 8 samples.

Results

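The Ly6 genes encode small cell-surface proteins that are used as antibody markers of blood cell types. Here 8 of them, Ly6a, Ly6c1, Ly6c2, Ly6d, Ly6e, Ly6g, Ly6i and Ly6k, were taken by gene symbol from the deposited gene tables, which list 45706 genes. All 8 were found, and 5 of them had enough reads to be tested. The study sequenced polyadenylated RNA of sorted natural killer (NK) cells, and its BALB/c hosts had been given CT26 cells under the skin, a colorectal carcinoma line of the mouse that here lacked β2-microglobulin and so MHC class I at its surface. The titles give 4 libraries as splenic NK cells (spNK) and 4 as tumour-infiltrating NK cells (tuNK). The tissue tag and source name state the reverse for each of the 8 samples. Groups and directions here follow the titles, and the other reading would turn each direction. The labels name neither the sorting markers nor whether replicates were separate mice, so p-values measure the spread between these samples only.

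Ly6 proteins fold into a compact domain held together by disulfide bonds, and most are tied to the outer membrane by a glycosylphosphatidylinositol (GPI) anchor with no segment inside the cell. Ly6a (Sca-1) is known from stem cells and activated lymphocytes, Ly6c1 and Ly6c2 together make up the Ly6C antigen of monocytes, memory T cells and mature NK cells, and Ly6g marks neutrophils. Several members, Ly6a, Ly6e and the Ly6c genes among them, are known to be induced by interferons. Inbred mice differ in their Ly6 haplotype, and BALB/c does not share that of C57BL/6, the strain of the GRCm38 reference.

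All 8 genes lie in 1 cluster of 397 kb on chromosome 15 (GRCm38, GENCODE M21). Ly6d (ENSMUSG00000034634) spans 74762056 to 74763620 on the minus strand, Ly6k (ENSMUSG00000044678) 74796874 to 74799986 on the minus strand and Ly6e (ENSMUSG00000022587) 74955051 to 74959905 on the plus strand. Ly6i (ENSMUSG00000022586) spans 74979534 to 74983430, Ly6a (ENSMUSG00000075602) 74994877 to 74998031, Ly6c1 (ENSMUSG00000079018) 75044018 to 75048830 and Ly6c2 (ENSMUSG00000022584) 75108158 to 75111970, all on the minus strand. Ly6g (ENSMUSG00000022582) closes the row on the plus strand at 75155240 to 75159126.

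Ly6a, Ly6c1, Ly6c2 and Ly6e carry nearly all of the RNA, and their likeness in sequence bears on how far their reads can be told apart. The 90 bases from the start codon of 1 GENCODE transcript each are shown 5′ to 3′, with capitals where a base differs from Ly6c2 at the same position.
Ly6c2: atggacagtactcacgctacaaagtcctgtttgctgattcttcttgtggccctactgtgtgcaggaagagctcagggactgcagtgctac
Ly6c1: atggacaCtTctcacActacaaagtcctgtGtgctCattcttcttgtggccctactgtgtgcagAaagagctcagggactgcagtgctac
Ly6a: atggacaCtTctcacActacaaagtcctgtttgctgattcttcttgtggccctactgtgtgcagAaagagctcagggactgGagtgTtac
Ly6e: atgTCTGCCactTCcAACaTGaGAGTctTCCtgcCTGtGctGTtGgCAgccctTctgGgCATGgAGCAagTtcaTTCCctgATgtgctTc
Over the whole coding sequence Ly6c1 and Ly6c2 were identical at 387 of 396 bases (97.7%), with a longest identical run of 188 bases. Ly6a was 83.8% identical to Ly6c1 and 83.6% to Ly6c2, whereas Ly6e reached 56.8% against Ly6a. Reads were pairs of 60 bases, per the labels. Of the distinct 60-base words in annotated transcripts, Ly6c1 shared 27.1% with another gene (18.4% with Ly6c2 and 8.73% with Ly6a), Ly6c2 shared 11.9%, and Ly6a shared 14.1%, mostly with Ly6c1 (11.8%). Ly6e, Ly6d, Ly6g and Ly6k shared 0. Estimated counts of Ly6c1 and Ly6c2 were not whole numbers in any of the 8 libraries, nor were those of Ly6a in tuNK 1 and tuNK 2, while the values of Ly6e, Ly6d and Ly6k were whole within 0.01. The split of reads among Ly6c1, Ly6c2 and Ly6a is therefore an estimate.

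Library totals ran from 38745733 to 53886933 estimated counts. Fibroblast and mesenchymal tumour cell markers were high in tuNK, with 12 of 12 genes called higher (35.6% of all genes). They summed to 3730 to 5640 CPM (counts scaled to library size) in tuNK against 14.2 to 56.8 CPM in spNK. NK cell markers (12 genes) summed to 4030 to 5700 CPM in tuNK against 12800 to 18100 CPM in spNK. B and plasma cell markers (10 genes) summed to 382 to 2260 CPM in spNK and 24.5 to 38.1 CPM in tuNK, and erythroid markers (8 genes) to 171 to 734 CPM and 0.362 to 2.04 CPM. Mesenchymal tumour cell markers were thus high in the libraries titled as tumour, and markers of B and red cells, which the spleen holds, in those titled as spleen. Whether the RNA of these markers came from other cells in the sorted samples was not tested. A list of 32 pan-leukocyte genes had 31 called lower (34% of all genes). Their median log2 fold change was -1.69 against 0.02 over all genes. An alternative scaling sets those genes level between libraries and raises the log2 fold change of the median gene by 1.77. Its values are called leukocyte-scaled below. In such bulk libraries fewer cells of a type and less RNA per cell cannot be told apart.

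The study set out to compare the RNA profiles of NK cells from the 2 sites. Ly6e and Ly6a were higher in tuNK, Ly6c2 and Ly6d were lower, and Ly6c1 was slightly lower, or higher with leukocyte scaling. All 5 tested members passed the threshold of 0.05 after adjustment, as did 69.6% of all 14006 genes tested, so their count stands near a high background. Of the 5, 2 were higher (35.6% of all genes) and 3 lower (34% of all genes), and the median log2 fold change was -0.55 against 0.02 over all genes. With leukocyte scaling 3 were higher (78.9% of all genes) and 2 lower (5.8%). In 4 of the 5, all but Ly6c1, the CPM of the groups did not overlap, which held for 67.1% of all genes.

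**Figure D1:**
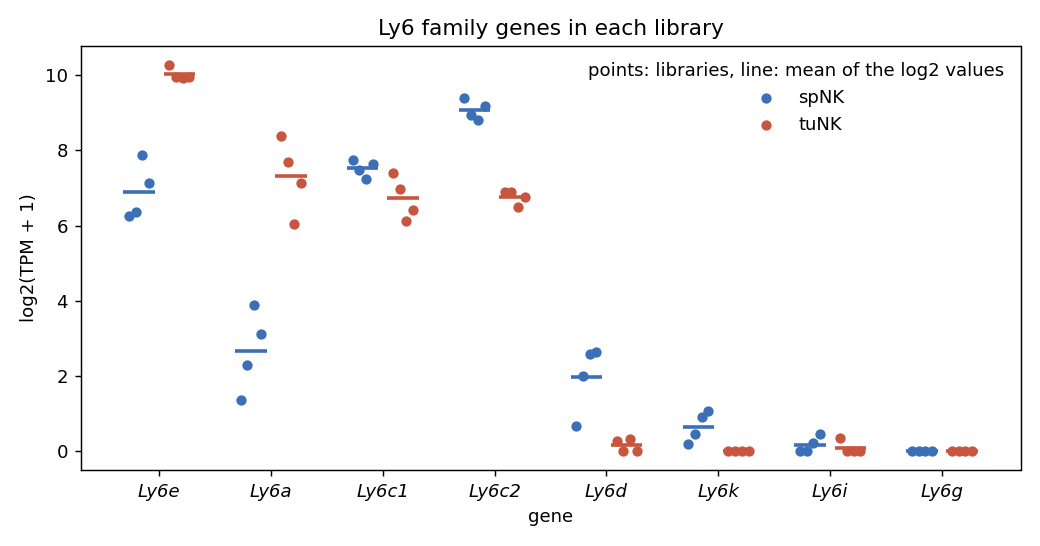
Level of each of the 8 Ly6 genes as log2(TPM + 1) in the 4 spNK (blue) and 4 tuNK (red) libraries, with a line at the mean of the log2 values of each group. Ly6e and Ly6a are higher in every tuNK library, Ly6c2 is lower in every tuNK library, the Ly6c1 groups overlap, and Ly6g is at 0 throughout.

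Ly6e, an interferon-induced protein of thymocytes and many other tissues that restricts the entry of some viruses, was the most abundant member in tuNK. Its level was 75.2, 80.4, 236 and 139 TPM (a unit scaled by transcript length) in spNK 1 to 4 and 1230, 995, 980 and 998 TPM in tuNK 1 to 4. Every tuNK library exceeded every spNK library. In CPM the tuNK values were close together, with a coefficient of variation of 3.14% against 53.7% in spNK. In TPM they spread more, at 1050 ± 122 (SD) in tuNK, with tuNK 1 highest, and 133 ± 74.9 in spNK. By mean TPM the gene stood at rank 150 of all genes in tuNK and rank 925 in spNK. It rose by 3.23 ± 0.35 on the log2 scale (SE, n = 4 per group; edgeR adjusted p = 3.85e-05; leukocyte-scaled 4.94), from 88.1 ± 47.3 to 824 ± 25.9 CPM (SD). Of the 14006 genes tested, 1293 had a higher log2 fold change.

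Ly6a was low but detected in spNK, with 39 to 400 counts. Its level was 1.57, 3.91, 13.7 and 7.61 TPM in spNK 1 to 4 and 333, 204, 64.2 and 140 TPM in tuNK 1 to 4. The groups did not overlap, but both were wide: the highest library was 9.0 times the lowest in spNK and 4.25 times in tuNK, in CPM. The gene rose by 4.96 ± 0.73 on the log2 scale (edgeR adjusted p = 4.18e-04, n = 4 per group; leukocyte-scaled 6.62), from 3.93 ± 3.14 to 123 ± 64.8 CPM. With 1 library left out at a time the rise was 4.60 to 5.59. It was largest, at 5.59 ± 0.77, without spNK 3, the highest spNK library of the gene. By mean TPM Ly6a moved from rank 7567 to rank 639. The mesenchymal markers that separate the groups were also high in tuNK, and their part in the rise of Ly6a and Ly6e was not tested.

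Ly6c2, the Ly6C gene best known from inflammatory monocytes, was the most abundant member in spNK. Its level was 667, 491, 451 and 584 TPM in spNK 1 to 4 and 117, 118, 89.6 and 108 TPM in tuNK 1 to 4. Every tuNK library was below every spNK library. The gene fell by 2.17 ± 0.12 on the log2 scale (edgeR adjusted p = 1.06e-07, n = 4 per group), from 273 ± 42.3 to 60.8 ± 5.47 CPM, a drop from rank 237 to rank 1056 by mean TPM. The leukocyte-scaled change was -0.40 ± 0.16 (adjusted p = 0.0317). The NK cell markers fell about as far. All 12 were called lower (34% of all genes), and their median change on the log2 scale was -1.99. Once the leukocyte genes were set level, that median stood at -0.23, with 6 of the markers lower and 2 higher. Whether Ly6c2 fell more than the NK cell markers was not tested. Of 12 monocyte and macrophage markers 9 were tested. Of these, 6 were lower (34% of all genes), 1 higher (35.6% of all genes) and 2 not called. The sum of all 12 was 593 to 844 CPM in spNK and 320 to 463 CPM in tuNK, mostly Ccr2 (means of 563 and 313 CPM). Lyz2 went from a mean of 96.3 to 2.16 CPM and Csf1r from 2.83 to 0.0835 CPM, whereas Cd14 went from 0.28 to 60.3 CPM and C1qb stood at 0.354 and 0.38 CPM. Their part in the fall of Ly6c2 was not tested.

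Ly6c1, the Ly6C gene known from endothelium as well as lymphocytes, changed less than Ly6c2 before leukocyte scaling and more after it. Its level was 215, 178, 150 and 197 TPM in spNK 1 to 4 and 167, 124, 68.5 and 84.7 TPM in tuNK 1 to 4. The groups overlapped, since tuNK 1 exceeded spNK 3. The gene fell by 0.55 ± 0.19 on the log2 scale (edgeR adjusted p = 0.0261, n = 4 per group), from 103 ± 12.9 to 70.5 ± 20.3 CPM. That call was lost against a fold of 1.5 (adjusted p = 0.497) and without spNK 1 (-0.49, adjusted p = 0.0624), spNK 4 (-0.53, adjusted p = 0.0562) or tuNK 4 (-0.47, adjusted p = 0.0729), and the leukocyte-scaled change was 1.21 ± 0.20 (adjusted p = 5.51e-05), so its direction depends on the scaling. Endothelial markers (10 genes) summed to 93.7 to 104 CPM in spNK and 45.6 to 71.0 CPM in tuNK, mostly Pecam1, which leukocytes also express. Of 7 tested, 0 were higher (35.6% of all genes), 4 lower (34% of all genes) and 3 not called. Esam went from a mean of 7.38 to 1.03 CPM and Egfl7 from 6.27 to 1.06 CPM, while the vessel gene Cdh5 had means of 0.0687 and 0.476 CPM. The part of endothelial RNA in the change of Ly6c1 was not tested. With the counts of Ly6c1 and Ly6c2 summed to 1 feature, an alternative chosen after seeing the data, the change was -1.52 ± 0.15 (adjusted p = 5.03e-06).

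Ly6d, which marks lymphoid progenitors committed to the B lineage, was a low gene of spNK. Its estimated counts were 12, 82, 122 and 112 in spNK 1 to 4 and 4, 0, 6 and 0 in tuNK 1 to 4, or 3.46 ± 2.18 and 0.113 ± 0.131 TPM. The groups did not overlap. It fell by 4.68 ± 1.08 on the log2 scale (edgeR adjusted p = 0.00255, n = 4 per group; leukocyte-scaled -2.88). With 1 library left out at a time Ly6d changed by -5.54 ± 1.29 (without tuNK 3) to -4.27. The B and plasma cell markers fell with it, and in tuNK Ms4a1 and Mzb1 of that list had 0 counts, while their part in the fall of Ly6d was not tested.

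The 3 members that were not tested had few or no reads. Ly6k, a gene of testis and sperm, had 2, 11, 23 and 25 counts in spNK 1 to 4 and 0 in all tuNK libraries. With each tuNK library set to a floor of 3 counts (on average 0.0751 CPM, covering counting error only) it was at least 4.25-fold lower in tuNK, and a fit of all genes with a read called it lower (edgeR adjusted p = 0.00788). Ly6i, a close relative of Ly6a, had 9 counts in all of spNK, in spNK 3 and spNK 4, and 4 in all of tuNK, in tuNK 1. Ly6g had 0 counts in each of the 8 libraries, which allows at most 0.0698 CPM in a spNK library and 0.0776 CPM in a tuNK library. The 12 neutrophil markers summed to 36.8 to 156 CPM in spNK and 22.2 to 37.3 CPM in tuNK. Of 8 tested, 7 were lower (34% of all genes) and 1 higher (35.6% of all genes). In spNK Mpo, a gene of immature granulocytes, had the highest mean (44.3 CPM, 0 in tuNK) and S100a8 and S100a9 had means of 9.76 and 12.5 CPM (0.089 and 0.145 CPM in tuNK). The tuNK sum was mostly Mmp9 (27.5 CPM, 0.0913 CPM in spNK), and Retnlg was at 0 in spNK and 0.0383 CPM in tuNK.

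**Figure D2:**
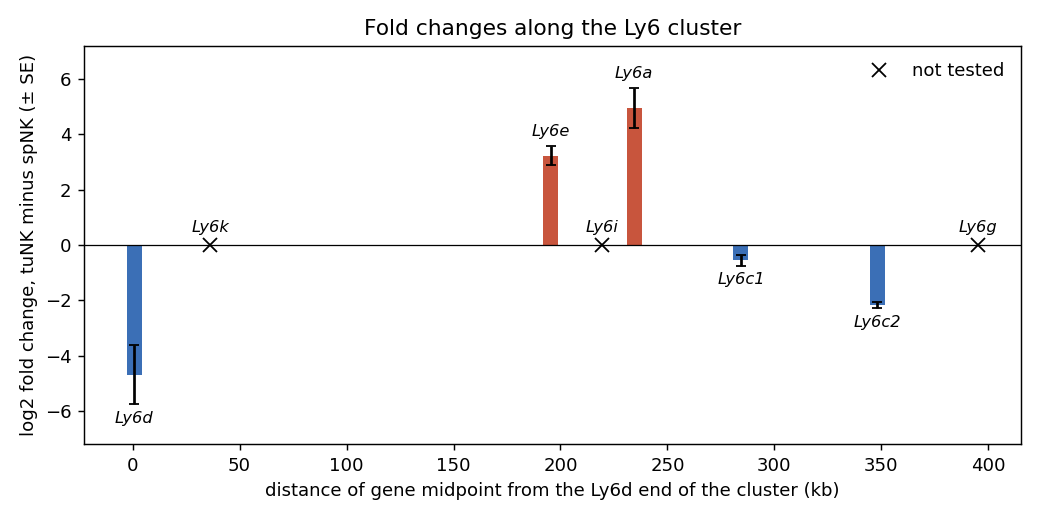
Log2 fold change (tuNK minus spNK, ± SE, n = 4 per group, TMM scaling) of the 5 tested members, drawn at the distance of each gene's midpoint from the Ly6d end of the cluster in kb, with crosses for the 3 genes not tested. The 2 genes that rose, Ly6e and Ly6a, lie in the middle of the cluster, and Ly6c1 and Ly6c2 beside them were lower.

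The make-up of the family differed more between groups than its sum. The 8 genes summed to 877 ± 91.3 TPM in spNK (756 to 960) and 1460 ± 281 TPM in tuNK (1200 to 1850). Ly6c2 held 62.4 ± 7.14% of that sum in spNK and 7.53 ± 0.861% in tuNK, and Ly6c1 held 21.1 ± 2.62% and 7.41 ± 1.63%. Ly6e held 15.2 ± 8.73% in spNK and 73.1 ± 6.64% in tuNK, and Ly6a 0.775 ± 0.614% and 12 ± 5.39%. Thus Ly6C genes prevailed in each spNK library and Ly6e in each tuNK library.

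**Figure D3:**
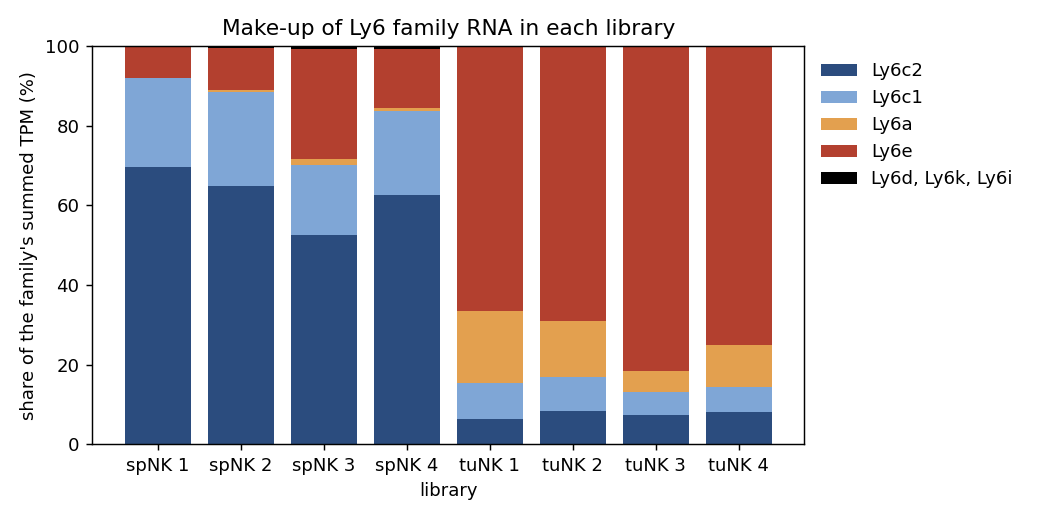
Share of the summed TPM of the 8 genes that each gene holds in each library, in percent. Ly6c2 (dark blue) holds 52.6 to 69.5% in spNK and Ly6e (red) holds 66.6 to 81.5% in tuNK.

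Ratios between members within a library do not depend on the scaling between libraries. The 4 members with at least 1 TPM in both groups gave 6 pairs. In each pair the ratio differed between groups, with an exact two-sided permutation p of 0.0286. That is the smallest p that 4 against 4 libraries allow, and the permutation p adjusted over the 6 pairs was also 0.0286. The 6 pairs reuse the same 4 genes. Ratios between other genes were not examined, and in 67.1% of all genes the CPM of the groups did not overlap. The ratio of Ly6c1 to Ly6c2 was 0.322, 0.363, 0.333 and 0.337 in spNK 1 to 4 and 1.42, 1.05, 0.765 and 0.786 in tuNK 1 to 4, a log2 difference of 1.52. The spNK values were nearly constant, and all 4 tuNK values were higher. The ratio of Ly6c2 to Ly6e was 1.91 to 8.87 in spNK and 0.0914 to 0.119 in tuNK, a log2 difference of -5.47. The ratio of Ly6a to Ly6e was 0.0208 to 0.0582 in spNK and 0.0655 to 0.27 in tuNK, a log2 difference of 1.82. For pairs of Ly6a, Ly6c1 and Ly6c2 the shared sequence limits how exactly reads were divided. Ly6e shares none of it.

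Within spNK the members fell into 2 patterns. Ly6a, Ly6d, Ly6e and Ly6k were all lowest in spNK 1 and highest in spNK 3 or spNK 4, and Ly6e for instance stood at 52.0, 53.9, 153 and 93.7 CPM. The platelet and megakaryocyte markers had the same lowest and highest libraries as Ly6d and Ly6k, at 327, 393, 395 and 614 CPM in spNK 1 to 4. The B and plasma cell markers had the same lowest and highest libraries as Ly6a and Ly6e, at 382, 1100, 2260 and 1600 CPM in spNK 1 to 4. Other markers also stood apart in spNK 3, with mesenchymal markers at 15.3, 14.2, 56.8 and 22.5 CPM and epithelial tumour cell markers at 2.79, 1.22, 10.2 and 2.13 CPM in spNK 1 to 4. Erythroid (734 CPM) and neutrophil (156 CPM) markers were highest there too. Ly6c2 ran the other way, from 326 CPM in spNK 1 to 229 CPM in spNK 3, as did the NK cell markers, from 18100 to 12800 CPM. With 4 libraries these orders are a description, and the part of RNA of these other cells in them was not tested.

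Within tuNK, Ly6a and Ly6c1 were ordered alike. In tuNK 1 to 4 Ly6a stood at 201, 142, 47.3 and 102 CPM and Ly6c1 at 93.3, 81.3, 49 and 58.4 CPM, both highest in tuNK 1 and lowest in tuNK 3. A list of 30 interferon-induced genes summed to 2230, 1770, 856 and 1380 CPM in the same libraries, in the same order. Its sum in spNK was 975 to 1160 CPM, so the tuNK 3 sum was below the spNK range. The mean log2(CPM + 1) over the list, which weighs its genes alike, was 5.48, 5.09, 4.15 and 4.76 in tuNK 1 to 4. In spNK that mean was 3.83 to 3.93, so by this measure tuNK 3 was above the spNK range. Ly6c2 (55.3 to 68.3 CPM) and Ly6e (789 to 846 CPM) varied little. The mesenchymal markers were highest in tuNK 1 but lowest in tuNK 2, at 5640, 3730, 3940 and 4030 CPM. Whether reads shared between Ly6a and Ly6c1 add to their common order was not tested.

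**Figure D4:**
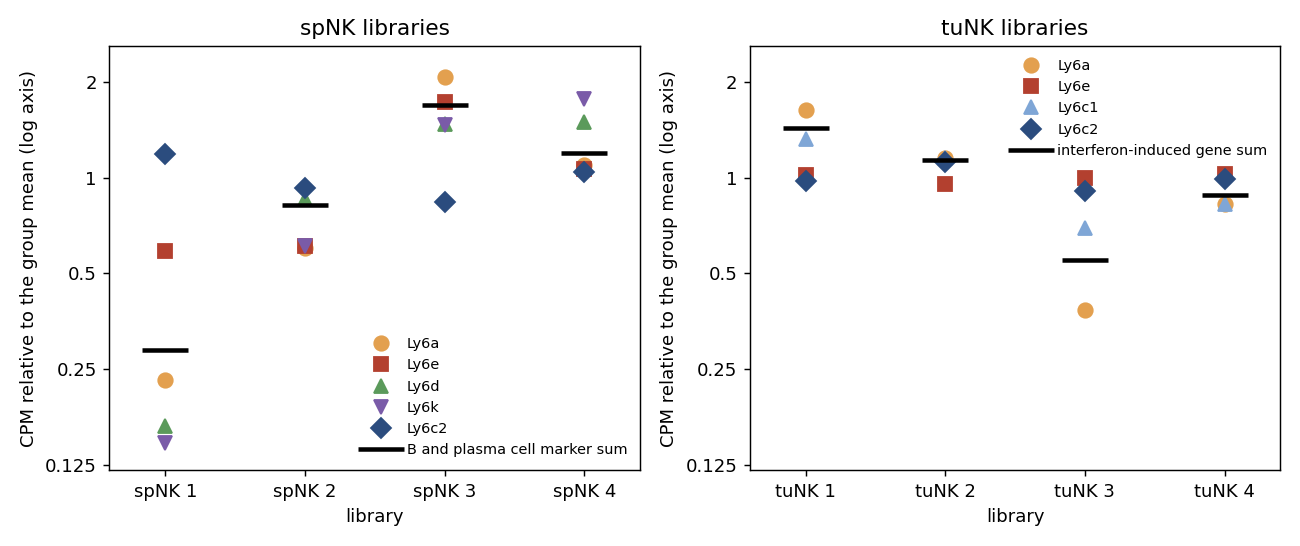
CPM of members in each library relative to the mean of its group (log axis), for spNK (left, with the summed B and plasma cell markers as bars) and tuNK (right, with the summed interferon-induced genes as bars). In spNK, Ly6a, Ly6e, Ly6d and Ly6k are lowest in spNK 1 and Ly6c2 is highest there. In tuNK, Ly6a and Ly6c1 are highest in tuNK 1 and lowest in tuNK 3.

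Of the interferon-induced list, 29 genes were tested, 16 were higher (35.6% of all genes) and 3 lower (34% of all genes) in tuNK, and 10 did not pass, so that 19 were called beside 69.6% of all genes. The median log2 fold change was 1.43 against 0.02 over all genes. With leukocyte scaling it was 3.17 against 1.79, and 28 were higher (78.9% of all genes). Oasl2 and Oas2, which encode sensors of double-stranded RNA or their relatives, rose by 6.56 ± 0.57 (edgeR adjusted p = 6.91e-06) and 5.59 ± 0.78 (edgeR adjusted p = 1.03e-04). The transcription factor genes Irf1 and Irf9 fell by 1.26 ± 0.31 (adjusted p = 0.00512) and 0.83 ± 0.17 (adjusted p = 0.00157), but were at 0.50 and 0.92 after leukocyte scaling.

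RefSeq promoters (GRCm38.p6) matched 3 of the 8 members, Ly6c1, Ly6c2 and Ly6g. The 250 bases before 1 RefSeq start site each are shown for Ly6c1 and Ly6c2, whose ratio changed, at chr15:75048838-75049087 and chr15:75111972-75112221, both on the minus strand. They are written 5′ to 3′ in the direction of transcription, with capitals where a base differs from, or has no partner in, the other sequence within the stretch both windows cover.
Ly6c1: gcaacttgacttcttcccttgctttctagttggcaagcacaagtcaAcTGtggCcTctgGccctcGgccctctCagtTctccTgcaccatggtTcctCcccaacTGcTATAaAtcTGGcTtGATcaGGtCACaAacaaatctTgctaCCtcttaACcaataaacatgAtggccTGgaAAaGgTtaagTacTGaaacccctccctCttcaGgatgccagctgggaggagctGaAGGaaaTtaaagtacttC
Ly6c2: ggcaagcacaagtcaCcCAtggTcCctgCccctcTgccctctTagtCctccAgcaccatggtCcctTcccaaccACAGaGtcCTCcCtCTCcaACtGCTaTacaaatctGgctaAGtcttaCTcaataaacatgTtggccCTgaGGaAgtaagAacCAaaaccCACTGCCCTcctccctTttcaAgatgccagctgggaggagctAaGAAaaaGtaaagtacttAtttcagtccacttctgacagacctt
Aligned bases were identical at 164 of 216 positions (75.9%), against 97.7% in the coding sequences. Neither window, nor that of Ly6g, held the core of the interferon-stimulated response element (GAAA, any 2 bases, GAAA) or of the gamma-activated site (TTCNNNGAA) on either strand, motifs found in 2.98% and 7.02% of all 32851 RefSeq promoter windows of that length. This describes the reference strain and these windows only.

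The genes with the nearest profiles over the 8 libraries were named by the smallest root-mean-square difference between log2(CPM + 1) profiles centred on their own mean. For Ly6a these were Ifitm3, an interferon-induced antiviral gene (0.451 log2 units, 16.3 CPM in spNK and 408 in tuNK), Plxna1 (0.461) and Ckap4 (0.509). For Ly6e they were Smo (0.178), Fads2 (0.188) and Tspan31 (0.197). For Ly6c2 they were Tyk2, a kinase of cytokine receptors (0.118), Ankrd44 (0.119) and Mxd4 (0.121). For Ly6c1 they were Cdh24 (0.107), Taf7 (0.109) and Zfp955a (0.111). For Ly6d they were Strip2 (0.108), Slco5a1 (0.146) and the immunoglobulin segment Ighv5-12 (0.154). All of these likenesses include the difference between groups.

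Ly6 genes belong to a larger superfamily with the urokinase receptor. Of 38 other listed members 36 were in the table, 18 had a read and 8 were tested, of which 4 were higher (35.6% of all genes), 3 lower (34% of all genes) and 1 not called, so that 7 of 8 were called beside 69.6% of all genes. The median log2 fold change was 2.97 against 0.02 over all genes. Plaur, the urokinase receptor gene that many migrating cells express, was at 0.022, 0.114, 1.08 and 0.594 TPM in spNK 1 to 4 and 105, 74.1, 70.1 and 59.7 TPM in tuNK 1 to 4. It rose by 7.62 ± 0.64 on the log2 scale (edgeR adjusted p = 1.02e-05). With 1 library left out at a time the rise of Plaur was 7.24 to 8.56, largest without spNK 3. Slurp1, a secreted member known from skin, had 0 counts in spNK and 50.3 to 79.5 TPM in tuNK, at least 612-fold higher in CPM against the floor (0.063 CPM in spNK). It overlaps Them6 on the opposite strand, which averaged 25.7 and 30.7 CPM, and although the library kit keeps strand, no source here says whether the counting used it. Lypd5 had 0 counts in spNK and 7.53 to 9.37 TPM in tuNK, at least 101-fold higher in CPM. Lynx1, known as a modulator of nicotinic receptors in the brain, rose by 6.19 ± 0.91 (edgeR adjusted p = 2.70e-04), from 0.203 ± 0.298 to 15.1 CPM. With 1 library left out at a time its rise was 5.74 to 7.98, largest without spNK 3. Slurp1 and Lynx1 sit beyond the Ly6d end of the same cluster on chromosome 15 (74724318 to 74728034 and 74747852 to 74753046). These 4 stood beside the mesenchymal markers of tuNK, whose part was not tested.

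Among those that fell was Cd59a, an inhibitor of complement lysis, at 1.34, 0.707, 2.91 and 1.07 TPM in spNK 1 to 4 and at most 0.0755 TPM in tuNK. It fell by 5.44 ± 0.97 on the log2 scale (edgeR adjusted p = 4.72e-04). With 1 library left out at a time Cd59a changed by -6.72 (without tuNK 4) to -4.89. Ly6g6c and Ly6g6f, named after their values were seen, had 155 and 100 counts in all of spNK and 4 and 0 in all of tuNK. They lie in another cluster on chromosome 17 (35065388 to 35070050 and 35080480 to 35085610), and Ly6g6c overlaps Mpig6b, a platelet gene, on the opposite strand. The sum of 8 platelet and megakaryocyte markers was 327 to 614 CPM in spNK against 4.42 to 6.52 CPM in tuNK, and their part was not tested. Ly6g5b, also named after its values were seen, had a log2 fold change of -0.25 (edgeR adjusted p = 0.769).

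**Figure D5:**
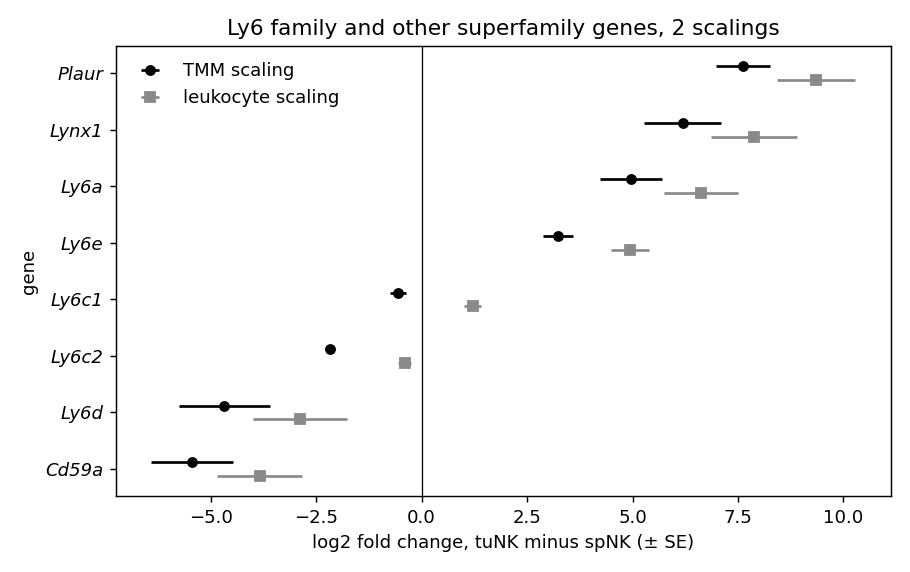
Log2 fold change (tuNK minus spNK, ± SE, n = 4 per group) of the 5 tested Ly6 members and of the 3 other superfamily genes with at least 1 CPM in a group and a read in both groups, with TMM scaling (black circles) and leukocyte scaling (grey squares). Ly6c1 lies below 0 with the first and above 0 with the second, and the other 7 genes keep their side.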

How the data were processed

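Per the submitters' processing notes, the tools were FastQC 0.11.9, STAR and Salmon and the build GRCm38 (mm10). For other versions, annotation and counting strand the sources used here say nothing. The authors deposited a table of estimated counts (expected counts, not normalised; 5.04 to 5.4% per library not whole within 0.01). The TPM table, as deposited by the authors, was normalised by them for transcript length and library size.

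Counts were rounded, genes were filtered by filterByExpr (14006 of 45706 kept) and libraries were scaled with TMM. The edgeR 4.0.16 quasi-likelihood test (robust, Benjamini-Hochberg over all genes, threshold 0.05) was run in R 4.3.3 on 4 spNK and 4 tuNK libraries. It was tested on simulated data in which few genes changed, up and down alike. That check does not cover a shift of most genes in 1 direction. CPM include TMM factors (0.916 to 1.072), and log2 fold changes are tuNK minus spNK. Ratios of TPM within libraries were compared with an exact permutation test (SciPy 1.17.1, 70 assignments), adjusted over 6 pairs. Alternatives used limma 3.58.1, DESeq2 1.42.0 and other scalings, filters and libraries. Counts are of reads, so floors cover counting error only.

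Members and lists were chosen with earlier results of these data known. Text names all members, superfamily genes with at least 1 CPM in a group, the 2 highest and 2 lowest called genes of the interferon and GPI lists, and the 3 nearest profiles per member. Of 251 list entries 3 were not matched. Same-numbered samples did not deviate together (r = 0 to 0.1), so no block was used.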

Additional observations from a re-analysis of the deposited data

Results flagged for a closer look

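Of 13 sets of 4 libraries (8 genes in 2 groups, without those at 0 throughout) 1 held a library far from the other 3. Ly6i stood at 0.104 CPM (4 counts) in tuNK 1 and at 0 in the other 3 tuNK libraries. Its gap to the next value was the whole range of the group, above Dixon's 95% limit for 4 values. Chance passes that limit in about 1 of 20 sets of continuous values. With the other 3 libraries at 0, any value above 0 is flagged, so the flag says nothing about its size. These 4 counts lie barely above the floor of 3, and Ly6a, with which Ly6i shares sequence, was also highest in tuNK 1 (201 CPM).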

How the results depend on the processing

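Ly6a, Ly6c2, Ly6d and Ly6e kept their direction and their call under every alternative in which they were tested. Ly6d was not tested with a minimum of 1 CPM in 4 libraries. Log2 fold changes ran from 4.60 to 6.62 for Ly6a, 3.02 to 4.94 for Ly6e, -2.33 to -0.40 for Ly6c2 and -5.54 to -1.83 for Ly6d. Leukocyte scaling reversed Ly6c1 (1.21), Irf9 (0.92), Irf1 (0.50), Pgap3 (0.43) and Tmem8 (0.35). With that scaling 11049 genes were higher and 812 lower, in place of 4983 and 4761, and the higher share of calls was 93.2%. Against a fold of 1.5, 6378 genes were called in place of 9744, of which 3028 were lower. The fewer calls come with the stricter test by its construction. Members called ran from 4 to 6 over all alternatives. Leaving out 1 library gave 9451 to 9907 calls over all genes, and 4 or 5 members. Without spNK 3 and tuNK 1 together, 9657 genes and 5 members were called. With the replicate number as a block, 9555 genes and 5 members were called, 2 higher and 3 lower, and the block changed no call of a member. Pair ratios kept their direction and call with counts in place of TPM or an offset of 0.1. The smallest log2 values of Ly6d come from log2(TPM + 1), which understates low genes. Of the 3 members below the filter on low counts, Ly6k was called lower with no filter (adjusted p = 0.00788) and Ly6i was not (adjusted p = 0.736), while Ly6g had no read.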

Other observations

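Ly6 proteins reach the surface through a GPI anchor, and the genes that build, attach and trim it were examined beside it. Of 29 such genes with a match, 28 were tested, 7 were higher (35.6% of all genes) and 10 lower (34% of all genes) in tuNK, and 11 did not pass (edgeR adjusted p under 0.05), with a median log2 fold change of 0.02, the same as over all genes. With leukocyte scaling 27 were higher (78.9% of all genes) and 0 lower (5.8% of all genes), with a median of 1.80 against 1.79 over all genes. Pigf and Pign, which act in adding phosphoethanolamine to the anchor, rose by 1.37 ± 0.16 (edgeR adjusted p = 2.1e-05) and 1.36 ± 0.10 (edgeR adjusted p = 6.74e-07). Pgap3, which remodels the lipid of the attached anchor, and Tmem8, a phospholipase acting on GPI-anchored proteins, fell by 1.33 ± 0.11 (edgeR adjusted p = 2.11e-06) and 1.38 ± 0.17 (edgeR adjusted p = 2.57e-05), from 33.6 ± 2.59 to 13.3 ± 1.19 CPM and from 20.5 ± 2.67 to 7.88 ± 1.37 CPM. After leukocyte scaling these 2 were at 0.43 and 0.35.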
